A study of Mus musculus with 51 samples.

Results

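The surface ectoderm and epidermis genes are a list of 38 textbook genes of embryonic skin: keratins, junction and basement membrane genes, epithelial proteases and their inhibitors, and transcription factors. They were taken by gene symbol. All 38 were found among the 18194 genes measured, 22 of them through 1 probe set and 16 through several. Expression was profiled on whole-genome microarrays in wild-type FVB mice, 1 embryo per sample. Forelimb buds were sampled at E9.5 on 3 arrays, at E10.5 on 5, at E11.5 on 4, and at E12.5 and E13.5 on 5 each. Hindlimb buds were sampled at E10.5 on 4 arrays and at E11.5, E12.5 and E13.5 on 5 each, and whole embryos on 2 arrays at each of the 5 stages. The labels name no transgene and no treatment. The limb replicates of a stage were litter mates from 1 litter, so stage and litter cannot be told apart, and whole embryos still contain their limbs. The whole bud was used, with its ectoderm, mesenchyme and the vessels, nerves and muscle precursors inside it.

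The limb bud is a core of mesenchyme covered by a sheet of surface ectoderm, which is at first a simple epithelium and later becomes the layered epidermis. Simple epithelia use the keratins Krt8, Krt18 and Krt19, whereas the basal cells of epidermis use Krt5, Krt14 and Krt15. The transcription factor Trp63 is required for the epidermis to form, and the apical ectodermal ridge at the distal edge of this ectoderm is a source of FGF signals for limb outgrowth.

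Values are log2 intensities each the average of a gene's probe sets, and fold changes are differences of group means on the log2 scale with the standard error of the limma fit. A gene was called where the change was 2-fold or greater and the adjusted p of limma was under 0.001. The arrays formed 2 sets. On 13 arrays, those of whole embryo and of forelimb at E9.5, the bacterial control transcript Dap read 10.7 to 13.3, and on the 38 later limb arrays 3.04 to 3.63, so a comparison of a limb from E10.5 on with whole embryo also compares the sets. The 3' minus 5' difference of the Gapdh control was 1.48 to 2.85 on the 13 arrays and -0.10 to 0.16 on the 38. It thus varied within the first set, and its part in the values was not tested. Correlations between arrays of a group were 0.992 to 0.998 in the later limb groups and lowest, at 0.969, between the 2 E9.5 whole embryos. For 2 arrays the title and another label name different groups. They were used by title, as hindlimb E11.5 replicate 5 (Tbx5 5.75, Tbx4 10.05, Pitx1 10.65) and forelimb E12.5 replicate 5 (Tbx5 9.77, Tbx4 6.77, Pitx1 5.52), and their limb-type genes had the levels of the limb in the title. The mean of 11 limb mesenchyme genes was 9.03 to 9.12 in E9.5 forelimb arrays, against 7.49 to 8.16 in E9.5 whole embryos.

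Between E10.5 and E13.5 the 3 keratins of basal epidermis rose and the 3 keratins of simple epithelium fell, in both limbs. In forelimb, 9 of the 38 members were higher at E13.5 than at E10.5 and 10 were lower, where 5.43% of all genes were higher and 5.13% lower, with a median of -0.10 over the members and -0.03 over all genes. In hindlimb, 9 members were higher and 8 lower, where 5.99% of all genes were higher and 5.16% lower, with a median of -0.01 over the members and -0.08 over all genes. The 2 limbs had 16 called members in common, 8 higher and 8 lower, and 18 members were called in neither, where 4.39% of all genes were higher in both, 3.56% lower in both and 86.2% called in neither. Krt15, Col17a1, Pkp1, Krt14, Krt5, Dsp, Perp and Dsc3 rose in both limbs, and Cldn7, Cldn6, Tfap2c, Krt8, Krt18, St14, Prss8 and Krt19 fell in both. Grhl1 rose in forelimb, and Cldn4 and Spint1 fell in forelimb, while Tfap2b rose in hindlimb. Without any 1 array of the groups compared, 18 or 19 members were called in forelimb and 17 in hindlimb. In such bulk samples, fewer cells of a type and less RNA per cell cannot be told apart.

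**Figure D1:**
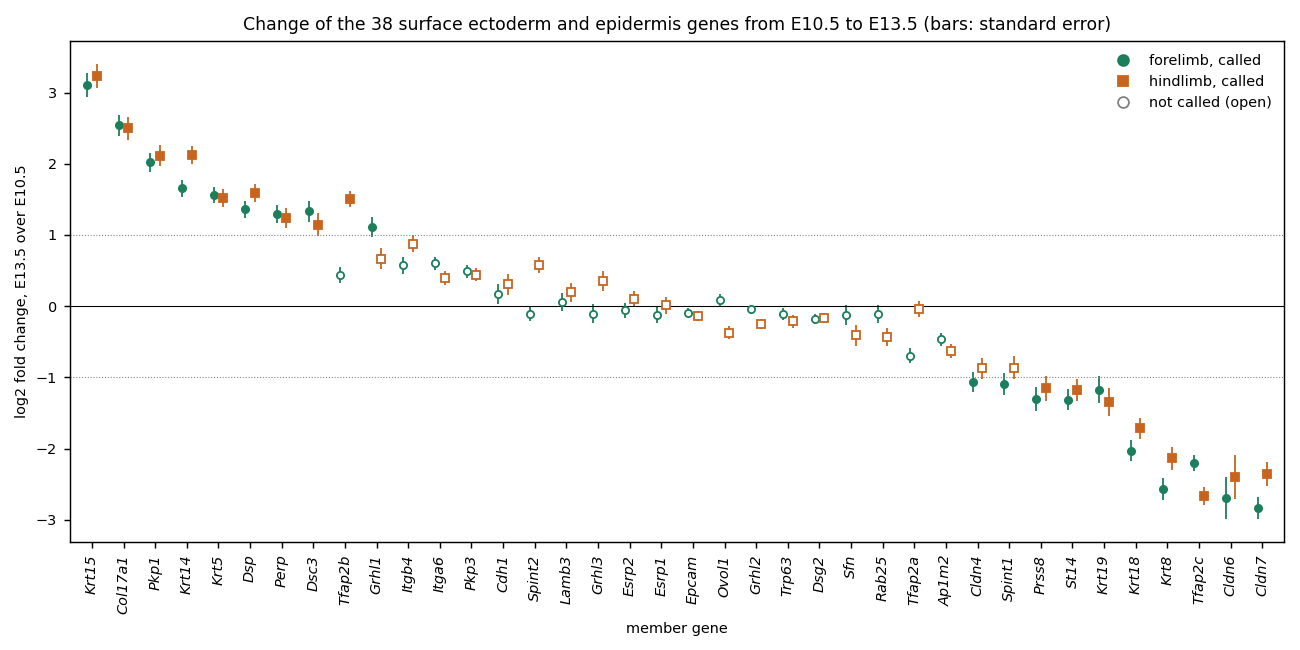
The log2 fold change of each of the 38 members at E13.5 over E10.5, in forelimb (circles) and hindlimb (squares), ordered by the mean of both limbs, with bars for the standard error and open symbols where a member was not called. Krt15 stood highest, at 3.11 in forelimb and 3.23 in hindlimb, and Cldn7 lowest, at -2.84 and -2.35, and dotted lines mark a 2-fold change.

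All 3 keratins of the basal layer rose in both limbs. Krt5 and Krt14 are the keratin pair of basal keratinocytes, and Krt15 is a further basal keratin. The RefSeq promoters of Krt5 (chr15:101712856-101713155, minus strand) and Krt14 (chr11:100205981-100206280, minus strand), on GRCm38.p6, show the sequence next to the start of the pair that rose together, 250 bases before the start and 50 after it.
Krt5: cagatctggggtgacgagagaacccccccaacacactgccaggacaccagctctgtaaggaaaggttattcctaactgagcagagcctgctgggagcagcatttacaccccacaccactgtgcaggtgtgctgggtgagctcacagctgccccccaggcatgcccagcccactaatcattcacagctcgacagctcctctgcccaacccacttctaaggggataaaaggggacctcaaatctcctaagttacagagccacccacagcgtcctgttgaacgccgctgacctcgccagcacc
Krt14: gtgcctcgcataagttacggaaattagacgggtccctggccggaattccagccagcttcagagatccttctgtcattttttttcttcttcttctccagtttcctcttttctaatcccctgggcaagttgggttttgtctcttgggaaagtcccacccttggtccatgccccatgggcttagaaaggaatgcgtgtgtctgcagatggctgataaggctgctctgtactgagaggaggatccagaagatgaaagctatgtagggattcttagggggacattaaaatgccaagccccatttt
Neither promoter held the 2 motifs searched, which would be in capitals. Krt15 read 9.32, 9.95, 9.43, 9.92 and 9.53 at E13.5 in forelimb, against 6.79, 6.87, 6.02, 6.02 and 6.89 at E10.5. In hindlimb, Krt15 read 8.38, 9.27, 8.81, 9.13 and 8.87 at E13.5, against 5.65, 5.82, 5.50 and 5.67 at E10.5. Every E13.5 array lay above every E10.5 array in its own limb, and 2 of the 5 E10.5 forelimb arrays lay below the other 3. The log2 fold change was 3.11 ± 0.17 in forelimb (adjusted p = 1.82e-20) and 3.23 ± 0.18 in hindlimb (adjusted p = 4.02e-20). Krt15 averaged 6.52 ± 0.46, 8.85 ± 0.26, 9.68 ± 0.19 and 9.63 ± 0.29 from E10.5 to E13.5 in forelimb (SD, n = 5, 4, 5 and 5). The forelimb level was as high at E12.5 as at E13.5. Krt5 read 9.95, 10.38, 10.15, 10.30 and 10.13 at E13.5 in forelimb, against 8.82, 8.60, 8.53, 8.25 and 8.89 at E10.5. In hindlimb, Krt5 read 9.58, 10.08, 9.74, 10.13 and 9.88 at E13.5, against 8.35, 8.54, 7.98 and 8.58 at E10.5. These arrays did not overlap either. Krt5 had a log2 fold change of 1.56 ± 0.12 in forelimb (adjusted p = 1.22e-15) and 1.52 ± 0.12 in hindlimb (adjusted p = 1.91e-14). Krt14 read 7.59, 8.06, 7.78, 7.79 and 7.95 at E13.5 in forelimb, against 6.26, 6.36, 5.95, 5.88 and 6.45 at E10.5. In hindlimb, Krt14 read 7.60, 7.83, 7.60, 7.99 and 7.68 at E13.5, against 5.61, 5.75, 5.12 and 5.97 at E10.5. For Krt14, too, the stages did not overlap, and its log2 fold change was 1.65 ± 0.12 in forelimb (adjusted p = 3.76e-16) and 2.13 ± 0.13 in hindlimb (adjusted p = 7.46e-19). Krt14 has 3 probe sets, of which a pair rose by 2.15 and 2.43 in forelimb and by 2.92 and 3.40 in hindlimb, while the third had a mean log2 intensity of 3.82 and changed by 0.38 in forelimb and 0.06 in hindlimb. The averaged change of Krt14 is therefore smaller than that of its bright probe sets.

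Among the genes that hold basal cells to the basement membrane, Col17a1 rose and the other 3 were not called. Col17a1 encodes a transmembrane collagen of the hemidesmosome. Col17a1 read 7.33, 7.93, 7.45, 7.58 and 7.41 at E13.5 in forelimb, against 5.47, 5.34, 4.83, 4.75 and 4.61 at E10.5. In hindlimb, Col17a1 read 7.22, 7.50, 7.53, 7.44 and 7.34 at E13.5, against 4.75, 4.84, 5.15 and 4.90 at E10.5. No E13.5 array came near the highest E10.5 array. Col17a1 changed by 2.54 ± 0.15 in forelimb (adjusted p = 6.7e-19) and 2.50 ± 0.16 in hindlimb (adjusted p = 9.1e-18). Itga6 and Itgb4, the integrin pair of the hemidesmosome, changed by 0.60 and 0.57 in forelimb and by 0.39 and 0.88 in hindlimb, all under the 2-fold limit, with an adjusted p of 0.00106 for Itga6 in hindlimb and of 4.28e-05 or less in the other comparisons. Itga6 is also expressed by endothelial cells. Lamb3, a chain of the basement membrane laminin, changed by 0.06 and 0.19 and averaged 4.29 to 4.68 in the forelimb groups from E10.5, low on the scale of these arrays.

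Of the 6 desmosome genes, 4 rose in both limbs. Dsp encodes desmoplakin, which ties keratin filaments to the desmosome, and Pkp1 encodes a plakophilin of its plaque. Pkp1 read 8.31, 8.82, 8.14, 8.64 and 8.34 at E13.5 in forelimb, against 6.81, 6.58, 6.18, 6.09 and 6.50 at E10.5. In hindlimb, Pkp1 read 7.89, 8.60, 8.34, 8.66 and 7.97 at E13.5, against 6.25, 6.04, 6.19 and 6.22 at E10.5. The stages did not overlap in either limb. Its log2 fold change was 2.02 ± 0.14 in forelimb (adjusted p = 5.33e-17) and 2.11 ± 0.14 in hindlimb (adjusted p = 8.66e-17). Dsp read 8.79, 9.19, 8.83, 9.05 and 8.46 at E13.5 in forelimb, against 7.47, 7.55, 7.39, 7.58 and 7.52 at E10.5. In hindlimb, Dsp read 8.32, 9.10, 8.85, 8.68 and 8.61 at E13.5, against 7.07, 7.20, 6.99 and 7.24 at E10.5. Dsp was higher in every E13.5 array than in any E10.5 array of its limb, by 1.36 ± 0.12 in forelimb (adjusted p = 1.01e-13) and 1.59 ± 0.12 in hindlimb (adjusted p = 5.69e-15) on the log2 scale. Perp, a membrane protein of desmosomes and a target of Trp63, had a log2 fold change of 1.30 ± 0.13 in forelimb (adjusted p = 6.38e-12) and 1.24 ± 0.14 in hindlimb (adjusted p = 1.17e-10). The desmosomal cadherin Dsc3 changed by 1.33 ± 0.15 in forelimb (adjusted p = 2.09e-10) and 1.15 ± 0.16 in hindlimb (adjusted p = 3.45e-08). Dsc3 was low on the scale of these arrays, with means of 5.29 at E13.5 in forelimb, against 3.96 at E10.5, and 5.22 at E13.5 in hindlimb, against 4.08 at E10.5. Its 2 probe sets changed unequally, by 2.21 and 0.45 in forelimb. Dsg2, the desmoglein of simple epithelia, changed by -0.18 and -0.17 and the plakophilin gene Pkp3 by 0.49 and 0.44, and neither was called.

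All 3 keratins of simple epithelium fell in both limbs. Krt8 pairs with Krt18 in simple epithelia, and Krt19 is found in many simple and ductal epithelia. Krt8 and Krt18 lie beside each other on mouse chromosome 15, and their RefSeq promoters (GRCm38.p6, chr15:102004293-102004592, minus strand and chr15:102027966-102028265, plus strand) are given as those of the pair that fell together. Capitals mark the AP-2 site GCCNNNGGC.
Krt8: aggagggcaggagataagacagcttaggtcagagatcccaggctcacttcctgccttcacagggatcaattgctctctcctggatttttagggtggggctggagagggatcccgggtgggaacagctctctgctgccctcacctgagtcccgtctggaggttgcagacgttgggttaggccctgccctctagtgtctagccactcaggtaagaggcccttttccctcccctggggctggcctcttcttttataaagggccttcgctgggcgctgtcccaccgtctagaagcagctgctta
Krt18: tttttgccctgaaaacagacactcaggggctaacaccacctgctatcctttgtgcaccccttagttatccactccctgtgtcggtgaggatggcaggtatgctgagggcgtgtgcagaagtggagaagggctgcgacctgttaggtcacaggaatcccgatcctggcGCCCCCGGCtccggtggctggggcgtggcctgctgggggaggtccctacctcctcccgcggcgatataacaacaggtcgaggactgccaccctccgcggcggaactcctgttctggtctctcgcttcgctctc
Krt8 read 6.07, 6.26, 6.03, 6.07 and 6.08 at E13.5 in forelimb, against 8.74, 8.60, 8.70, 8.87 and 8.46 at E10.5. In hindlimb, Krt8 read 5.97, 6.51, 6.24, 6.28 and 5.92 at E13.5, against 8.28, 8.53, 8.11 and 8.37 at E10.5. The highest E13.5 array lay far below the lowest E10.5 array in each limb. Krt8 had a log2 fold change of -2.57 ± 0.16 in forelimb (adjusted p = 1.79e-18) and -2.14 ± 0.17 in hindlimb (adjusted p = 4.72e-15), and its 3 probe sets ran from -2.72 to -2.38 in forelimb. Krt18 read 7.13, 7.11, 6.93, 6.79 and 7.18 at E13.5 in forelimb, against 8.92, 8.93, 9.22, 9.25 and 8.98 at E10.5. In hindlimb, Krt18 read 7.54, 7.68, 7.50, 7.57 and 7.52 at E13.5, against 9.30, 9.41, 9.17 and 9.23 at E10.5. Krt18 had no overlap between the stages either, and a log2 fold change of -2.03 ± 0.14 in forelimb (adjusted p = 1.91e-16) and -1.72 ± 0.15 in hindlimb (adjusted p = 2.15e-13). Krt19 read 5.91, 6.50, 5.73, 6.18 and 6.01 at E13.5 in forelimb, against 7.14, 7.17, 7.40, 7.34 and 7.16 at E10.5. In hindlimb, Krt19 read 5.58, 6.63, 5.72, 6.18 and 5.34 at E13.5, against 7.07, 7.51, 7.32 and 7.03 at E10.5. The gap between the stages was smaller for Krt19, whose E13.5 arrays spread widely in hindlimb. Its log2 fold change was -1.17 ± 0.19 in forelimb (adjusted p = 5.82e-07) and -1.35 ± 0.20 in hindlimb (adjusted p = 1.27e-07).

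The claudins, which form tight junctions, fell as well. Cldn6 is a claudin of embryonic epithelia and Cldn7 one of simple epithelia. Cldn7 read 5.22, 5.06, 5.57, 5.44 and 5.16 at E13.5 in forelimb, against 8.13, 8.10, 8.32, 8.27 and 7.82 at E10.5. In hindlimb, Cldn7 read 5.96, 6.20, 5.99, 5.93 and 5.73 at E13.5, against 8.13, 8.51, 8.27 and 8.35 at E10.5. The stages were far apart, and the forelimb arrays at E13.5 lay below the hindlimb arrays. Cldn7 changed by -2.84 ± 0.16 in forelimb (adjusted p = 8.37e-20) and -2.35 ± 0.17 in hindlimb (adjusted p = 2.83e-16). Cldn6 read 5.94, 5.86, 6.12, 6.0 and 5.92 at E13.5 in forelimb, against 8.45, 8.70, 8.91, 8.85 and 8.41 at E10.5. In hindlimb, Cldn6 read 6.09, 6.29, 6.60, 6.56 and 6.23 at E13.5, against 8.46, 9.00, 8.69 and 8.87 at E10.5. The Cldn6 arrays of the 2 stages did not overlap, with a log2 fold change of -2.69 ± 0.29 in forelimb (adjusted p = 6.8e-11) and -2.40 ± 0.31 in hindlimb (adjusted p = 5.67e-09). Cldn4 changed by -1.07 ± 0.14 in forelimb (adjusted p = 1.01e-08) and -0.87 ± 0.15 in hindlimb (adjusted p = 2.51e-06) and was called in forelimb. The difference between the limbs in this change was -0.20 ± 0.21 (adjusted p = 0.58) and was not called.

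In the cascade of membrane proteases of epithelia, St14, which encodes matriptase, changed by -1.31 ± 0.14 in forelimb (adjusted p = 1.2e-10) and -1.18 ± 0.15 in hindlimb (adjusted p = 8.19e-09), and Prss8, which encodes its partner prostasin, by -1.30 ± 0.17 in forelimb (adjusted p = 5.24e-09) and -1.15 ± 0.18 in hindlimb (adjusted p = 2.94e-07). Both fell in both limbs. Their inhibitor genes moved unequally. Spint1 changed by -1.09 ± 0.15 in forelimb (adjusted p = 4.11e-08) and -0.86 ± 0.16 in hindlimb (adjusted p = 1.23e-05) and was called in forelimb, and the difference between the limbs was -0.23 ± 0.22 (adjusted p = 0.551). Spint2 changed by -0.10 ± 0.11 in forelimb (adjusted p = 0.422) and 0.58 ± 0.11 in hindlimb (adjusted p = 2.17e-05), which is under 2-fold, and the difference between the limbs of -0.68 ± 0.16 (adjusted p = 0.00187) was not called.

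The transcription factors of the list were less uniform. Tfap2c, an AP-2 factor of early surface ectoderm and trophoblast, fell in both limbs. Tfap2c read 5.58, 6.02, 5.71, 5.85 and 5.72 at E13.5 in forelimb, against 7.98, 7.88, 8.29, 8.05 and 7.67 at E10.5. In hindlimb, Tfap2c read 5.23, 5.69, 5.90, 5.66 and 5.32 at E13.5, against 8.12, 8.32, 8.35 and 8.11 at E10.5. No array of one stage reached those of the other. The log2 fold change was -2.20 ± 0.11 in forelimb (adjusted p = 9.63e-21) and -2.67 ± 0.12 in hindlimb (adjusted p = 1.25e-22), and all 3 of its probe sets fell, at -2.68 to -1.89 in forelimb and -3.37 to -2.20 in hindlimb. Tfap2b, an AP-2 factor that is also expressed by mesenchyme and neural crest, is given below with the comparison of the limbs. Tfap2a, the third AP-2 gene, changed by -0.70 ± 0.10 in forelimb (adjusted p = 1.54e-07) and -0.04 ± 0.11 in hindlimb (adjusted p = 0.806), and its difference between the limbs was -0.66 ± 0.15 (adjusted p = 0.00207), both under 2-fold. The grainyhead-like factors regulate epithelial junction and barrier genes. Grhl1 changed by 1.11 ± 0.14 in forelimb (adjusted p = 3.5e-09) and 0.66 ± 0.15 in hindlimb (adjusted p = 0.000164), was called in forelimb, and had a difference between the limbs of 0.45 ± 0.20 (adjusted p = 0.15). Grhl2 changed by -0.05 and -0.26 and Grhl3 by -0.11 and 0.35 in forelimb and hindlimb, and neither was called. Trp63 averaged 6.64 ± 0.20, 6.55 ± 0.24, 6.89 ± 0.06 and 6.52 ± 0.07 from E10.5 to E13.5 in forelimb (SD, n = 5, 4, 5 and 5), with a change of -0.11 (adjusted p = 0.268), and of -0.21 in hindlimb (adjusted p = 0.0429). Its 4 probe sets ran from -0.62 to 0.55 in forelimb and from -0.95 to 0.51 in hindlimb, so the averaged value hides unlike probe sets. Ovol1, a repressor in epidermis, averaged 3.62 to 3.80 in forelimb from E10.5, at the bottom of the scale, and was not called.

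None of the 7 genes common to epithelia was called in either limb. Cdh1, which encodes E-cadherin of adherens junctions, read 8.21, 8.60, 8.38, 8.50 and 7.90 at E13.5 in forelimb, against 8.08, 8.24, 8.19, 8.20 and 8.03 at E10.5. In hindlimb it read 7.83, 8.40, 8.52, 8.54 and 8.07 at E13.5, against 8.06, 8.09, 7.61 and 8.11 at E10.5. The stages overlapped in both limbs. Cdh1 changed by 0.17 ± 0.14 in forelimb (adjusted p = 0.307) and 0.31 ± 0.15 in hindlimb (adjusted p = 0.0776). The change of Esrp1, an epithelial splicing regulator, was -0.12 ± 0.11 in forelimb (adjusted p = 0.358) and 0.01 ± 0.12 in hindlimb (adjusted p = 0.94), and that of its relative Esrp2 was -0.06 ± 0.10 in forelimb (adjusted p = 0.644) and 0.10 ± 0.11 in hindlimb (adjusted p = 0.447). The errors of these 3 genes were 0.10 to 0.15. Epcam, an epithelial adhesion gene, changed by -0.09 and -0.14, but its 2 probe sets ran in opposite directions, -0.87 and 0.68 in forelimb and -0.68 and 0.40 in hindlimb. The others not called were Sfn, a 14-3-3 gene of stratified epithelium (-0.12 and -0.41), Rab25, a small GTPase of epithelial trafficking (-0.11 and -0.43), and Ap1m2, an epithelial clathrin adaptor subunit (-0.47 and -0.63).

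**Figure D2:**
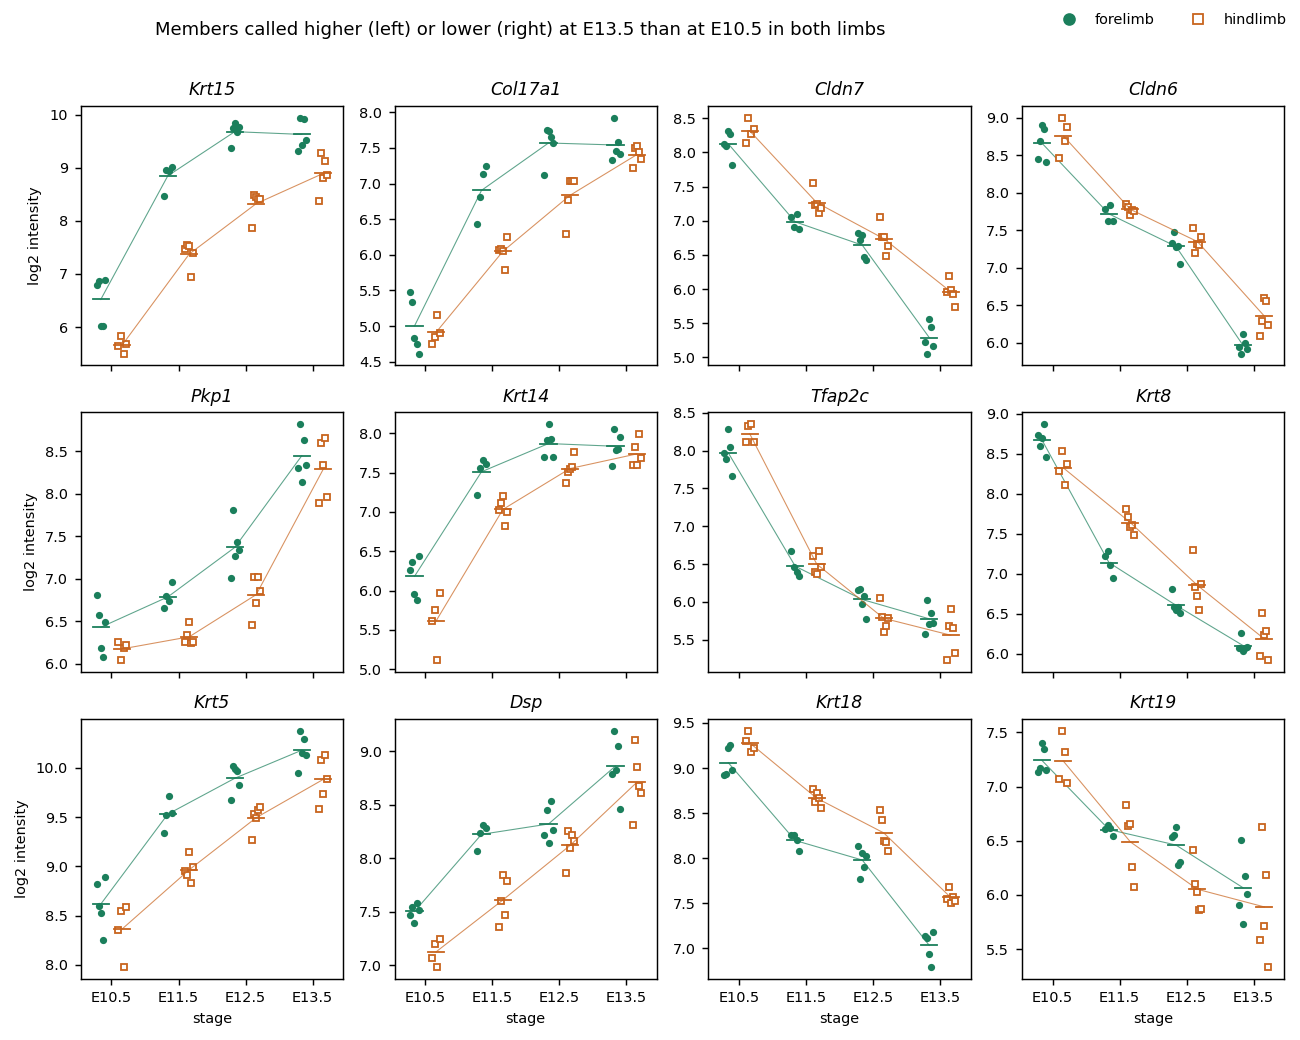
Log2 intensity of every array from E10.5 to E13.5 for the 6 members of largest rise (left columns) and the 6 of largest fall (right columns) among those called in both limbs, with forelimb as filled circles and hindlimb as open squares, and short lines for group means (4 or 5 arrays per group). Krt15 reached a mean of 9.68 at E12.5 in forelimb, against 8.32 in hindlimb, and the panels have their own scales because levels of different genes are not compared.

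The steps between stages dated only part of these changes. Several members called over the whole span, among them Krt5 and Dsp, were called at no single step. Over the first step, at E11.5 relative to E10.5, 3 members rose and 3 fell in forelimb, against 1.71% of all genes higher and 0.363% lower (median -0.14 for members and 0.00 for all genes). These were Krt15 (2.33), Col17a1 (1.90) and Krt14 (1.33), which rose, and Krt8 (-1.53), Tfap2c (-1.50) and Cldn7 (-1.14), which fell. In hindlimb, 4 rose and 2 fell over the same step, against 1.95% of all genes higher and 0.368% lower (median -0.17 for members and -0.03 for all genes). The members were Krt15 (1.71), Krt14 (1.42), Tfap2b (1.27) and Col17a1 (1.14), and the lower ones Tfap2c (-1.73) and Cldn7 (-1.05). No member was called from E11.5 to E12.5 in either limb, with 0.599% of all genes higher and 0.165% lower in forelimb (median 0.04 for members and -0.02 for all genes) and 0.583% of all genes higher and 0.242% lower in hindlimb (median -0.05 for members and -0.01 for all genes). At an adjusted p under 0.05 with no fold limit, 9 members passed in forelimb, against 10.3% of all genes, and 12 in hindlimb, against 16.7%, at this step. Over the last step, Pkp1 (1.08) and Perp (1.07) rose and Cldn7 (-1.35) and Cldn6 (-1.32) fell in forelimb, 2 members each way, against 1.42% of all genes higher and 1.29% lower (median -0.04 for members and -0.04 for all genes). The count of 4 was 2 without forelimb E12.5 replicate 1 and 2 without forelimb E13.5 replicate 2. Pkp1 (1.48) and Perp (1.14) rose in hindlimb, 2 members higher and 0 lower, against 1.55% of all genes higher and 0.396% lower (median 0.09 for members and -0.07 for all genes). Of the members, 18 had their highest mean at E10.5 in each limb, and 11 in forelimb and 17 in hindlimb had it at E13.5.

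Of other epithelial genes, 23 of 24 genes of epidermal stratification and cornification were measured, and 4 were higher and 0 lower at E13.5 than at E10.5 in forelimb, and 2 higher and 0 lower in hindlimb (medians 0.22 and 0.10). Over this span 5.43% of all genes were higher and 5.13% lower in forelimb, and 5.99% and 5.16% in hindlimb. Klf4, a transcription factor of the barrier, rose by 3.61 in forelimb and 3.79 in hindlimb, and Krt1, a keratin of the suprabasal layers, by 2.81 and 2.26. Krt10, the partner of Krt1, rose by 1.42 and Krt4 by 1.27 in forelimb. The mean of this list was 5.27 to 5.68 over the E13.5 forelimb arrays, against 4.91 to 5.05 over the E10.5 arrays, and 5.18 to 5.58 in hindlimb at E13.5, against 4.84 to 4.98 at E10.5. Of 26 further junction, polarity and basement membrane genes, 22 were measured, with 2 higher and 1 lower in forelimb and 3 higher and 2 lower in hindlimb (medians -0.02 and 0.01). Col7a1, the collagen of anchoring fibrils, rose by 1.51 and 1.74, and Klf5, a factor of epithelial progenitors, by 1.15 and 1.07, while Llgl2, a polarity gene, fell (-1.05 and -1.31). Of 18 genes of the apical ectodermal ridge and limb ectoderm, 1 was higher and 4 lower in forelimb and 3 higher and 5 lower in hindlimb (medians -0.36 and -0.41). Fgf8, the FGF made along the ridge, fell (-4.83 and -4.96), as did the ridge factors Sp8 (-2.84 and -2.65) and Bhlha9 (-2.74 and -2.62). Bmp2, which the limb mesenchyme also makes, rose by 1.72 and 3.19. The others higher in hindlimb were Fgf9, which averaged 6.76 at E13.5 against 5.57 at E10.5, and Dlx5, at 7.82 against 6.755.

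Markers of other cells moved as follows over the same span, to be read against the same shares of all genes. Of the endoderm, lung and kidney list, 10 of 12 genes were measured and 0 were called in either limb, and its mean was 4.28 to 4.35 over E13.5 forelimb arrays, against 4.17 to 4.28 at E10.5, and 4.11 to 4.36 over E13.5 hindlimb arrays, against 4.21 to 4.34 at E10.5, low on the scale of these arrays. Of 4 mesothelium genes, 0 were called in forelimb and 1, Upk3b (-1.38), in hindlimb. Their mean spanned 3.64 to 3.94 over E13.5 forelimb arrays, against 3.82 to 5.42 at E10.5, and 3.85 to 4.25 over E13.5 hindlimb arrays, against 4.46 to 4.97 at E10.5. Mesothelium also expresses Krt8, Krt18 and Krt19, and its part in their fall was not tested. Of 11 mesenchyme genes, 3 were higher and 3 lower in forelimb and 3 higher and 0 lower in hindlimb, with Col1a1, the main collagen of bone and dermis, at 3.64 and 4.42, and the list mean was 10.27 to 10.30 over E13.5 forelimb arrays, against 10.03 to 10.19 at E10.5, and 10.45 to 10.58 over E13.5 hindlimb arrays, against 9.53 to 9.83 at E10.5. Of 4 melanocyte genes, 1 rose in forelimb and 2 in hindlimb, led by Dct, a pigment enzyme gene, at 2.06 and 3.23. Of 6 neural crest and Schwann cell genes 4 were measured, with 2 higher and 1 lower in each limb. Of 5 hair placode genes 4 were measured, and 1, Shh, fell in each limb (-2.84 and -2.70). Shh also marks the posterior limb bud. Of 5 endothelial genes, 0 were called in forelimb and 1, Emcn (-1.11), in hindlimb.

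Between the limbs, Krt15 was the member called. It was higher in forelimb than in hindlimb at E11.5 and E12.5, 2.78-fold and 2.56-fold, and no other member was called at any stage. The paper describes hindlimb development as delayed relative to forelimb, so limb type and developmental age cannot be told apart at a matched stage. At E10.5, 0 members were called, where 0.418% of all genes were higher and 0.148% lower in forelimb (median 0.09 for members and -0.03 for all genes). At E11.5, 1 was higher and 0 lower, with 0.313% and 0.0989% of all genes (median 0.08 for members and -0.00 for all genes). At E12.5, 1 was higher and 0 lower, with 0.462% and 0.0440% (median 0.20 for members and 0.01 for all genes). At E13.5, 0 were called, with 0.236% and 0.0495% (median 0.06 for members and -0.00 for all genes). Without a fold limit and at an adjusted p under 0.05, 6 members and 2551 of the 18194 genes differed at E10.5. At E11.5 it was 5 members, against 4.37% of all genes. For E12.5 the count was 6, against 9.94%, while E13.5 gave 4, against 6.46%. At E11.5 Krt15 read 8.46, 8.96, 8.95 and 9.02 in forelimb, against 7.46, 7.54, 7.52, 6.95 and 7.40 in hindlimb. The lowest forelimb array was above the highest hindlimb array, and the log2 fold change was 1.47 ± 0.18 (adjusted p = 9.26e-08). At E12.5 it read 9.36, 9.75, 9.85, 9.67 and 9.76 in forelimb, against 7.86, 8.48, 8.46, 8.42 and 8.41 in hindlimb, again with no overlap, and the log2 fold change was 1.36 ± 0.17 (adjusted p = 9.61e-08). At E10.5 the difference was 0.86 ± 0.18 (adjusted p = 0.000478) and at E13.5 it was 0.73 ± 0.17 (adjusted p = 0.00277), both under 2-fold and without overlap of the arrays. The mean of E11.5 forelimb, 8.85, lay between those of E12.5 hindlimb, 8.32, and E13.5 hindlimb, 8.89. Col17a1 differed by 0.85 ± 0.16 at E11.5 (adjusted p = 0.0003) and 0.73 ± 0.15 at E12.5 (adjusted p = 0.000742), and was under 2-fold. Among the other 36 members the largest difference of the averaged values at any stage was 0.79, of Tfap2b at E10.5. By the brightest probe set of each gene, Krt14 was also called at E10.5, at 1.09 ± 0.17 (adjusted p = 8.32e-06), and its second bright probe set differed by 0.81.

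**Figure D3:**
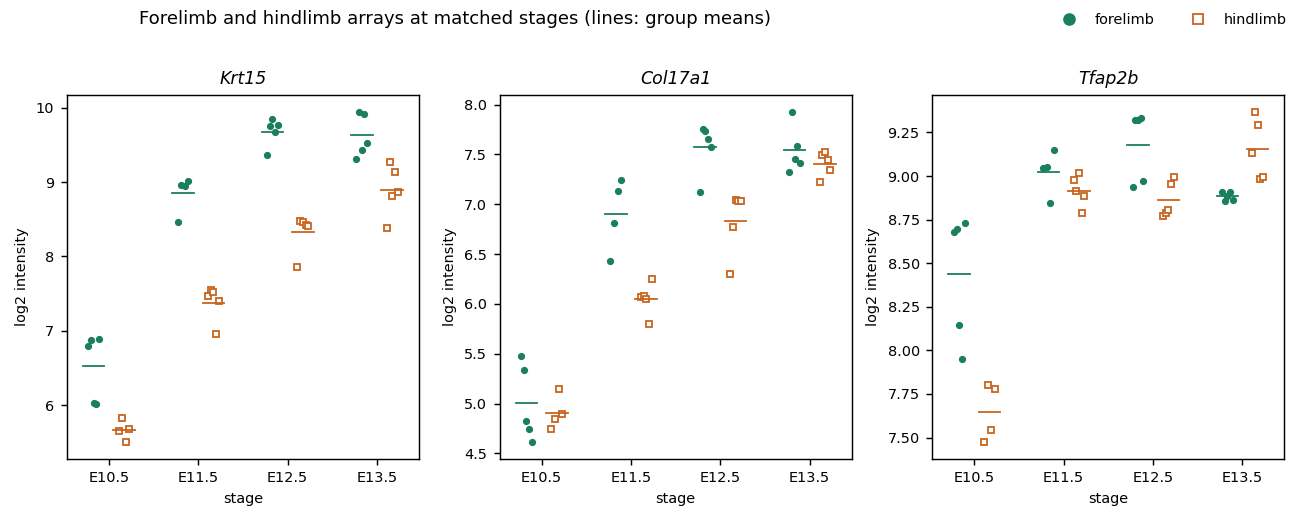
Log2 intensity of Krt15, Col17a1 and Tfap2b in each forelimb (filled circles) and hindlimb (open squares) array at matched stages, with lines for group means. The Krt15 arrays of the 2 limbs did not overlap at any stage, with E12.5 means of 9.68 in forelimb and 8.32 in hindlimb, and the Tfap2b arrays stood apart at E10.5, with means of 8.44 and 7.65.

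Tfap2b changed differently in the 2 limbs. In forelimb it read 8.91, 8.86, 8.88, 8.91 and 8.86 at E13.5, against 8.68, 8.70, 8.15, 7.95 and 8.73 at E10.5. In hindlimb it read 9.13, 9.37, 9.29, 8.98 and 8.99 at E13.5, against 7.47, 7.80, 7.54 and 7.78 at E10.5. The stages did not overlap in either limb, but 2 of the E10.5 forelimb arrays lay well below the other 3. The log2 fold change was 0.44 ± 0.11 in forelimb (adjusted p = 0.000661) and 1.51 ± 0.12 in hindlimb (adjusted p = 6.68e-15), and the difference between the limbs was -1.06 ± 0.16 (adjusted p = 7.55e-06). In this test of the difference 0 members were higher and 1 lower in forelimb, where 0.291% of all genes were higher and 0.627% lower (a median of -0.13 over the members and 0.03 over all genes). Both probe sets of Tfap2b ran this way, at 0.31 and 0.58 in forelimb and 1.21 and 1.80 in hindlimb. The value is close to the 2-fold limit, and the member was not called after quantile normalization (-0.96, adjusted p = 6.62e-05), without forelimb E10.5 replicate 2 (-0.999, adjusted p = 3.21e-05) or without forelimb E10.5 replicate 5 (-0.99, adjusted p = 3.01e-05). At E10.5 itself, forelimb was 0.79 ± 0.12 above hindlimb (adjusted p = 3.9e-06). Here, too, limb type and the delay of the hindlimb cannot be told apart.

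At E9.5, the youngest forelimb was set against whole embryo on 1 set of arrays. On that set the Gapdh difference varied from 1.48 to 2.85. In forelimb, 5 members were higher, Cldn6, Tfap2c, Krt5, Perp and Cldn7, and 2 were lower, Tfap2b and Dsp, where 2.08% of all genes were higher and 1.61% lower (median 0.17 for members and 0.08 for all genes). Krt5 read 7.45, 7.35 and 7.66 in forelimb, against 5.79 and 5.57 in whole embryo. Tfap2c read 8.48, 8.51 and 8.46 in forelimb, against 6.61 and 6.47 in whole embryo. Tfap2b read 5.97, 5.42 and 5.86 in forelimb, against 7.61 and 7.55 in whole embryo. In these 3 genes the arrays within a tissue lay close together and the tissues far apart. The log2 fold changes were 1.81 ± 0.17 for Krt5 (adjusted p = 1.65e-11), 1.94 ± 0.17 for Tfap2c (adjusted p = 1.34e-12) and -1.83 ± 0.16 for Tfap2b (adjusted p = 3.37e-12). Cldn6 read 9.21, 9.26 and 9.16 in forelimb, against 8.92 and 5.47 in whole embryo. The whole embryos lay farther apart than the tissue means, and the Cldn6 value of 2.02 ± 0.42 (adjusted p = 0.000213) rests on whole embryo E9.5 replicate 2 and was 0.29 (adjusted p = 0.634) without it. Without forelimb E9.5 replicate 2 it was 1.99 (adjusted p = 0.00104). Perp was higher by 1.68 ± 0.19 (adjusted p = 1.7e-09). Cldn7 was higher by 1.22 ± 0.23 (adjusted p = 4.49e-05), and by 0.86 (adjusted p = 0.0265) without whole embryo E9.5 replicate 2. Dsp had a log2 fold change of -1.03 ± 0.17 (adjusted p = 6.33e-06), near the 2-fold limit. It was not called without whole embryo E9.5 replicate 2 (-0.97), forelimb E9.5 replicate 2 (-0.98) or forelimb E9.5 replicate 3 (-0.96), and its 3 probe sets gave 0.16, -1.96 and -1.29. The same pair of whole embryos differed in Krt8 (10.84 and 9.29) and Krt18 (10.67 and 9.12), for which forelimb read 9.69, 9.77 and 9.25 and 9.66, 9.71 and 9.59. The count of 7 changed with whole embryo E9.5 replicate 1 left out, which left 1 array in that group. The share of all genes in that run is not given here. When the 2 groups were fitted alone, without the spread of the other groups, 0 members were called. With all groups, 18 members passed an adjusted p under 0.05 with no fold limit, against 32.7% of all genes. Trp63, which was not called (0.62, adjusted p = 0.000118), had 1 probe set at 1.95 and the other 3 between -0.11 and 0.35.

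**Figure D4:**
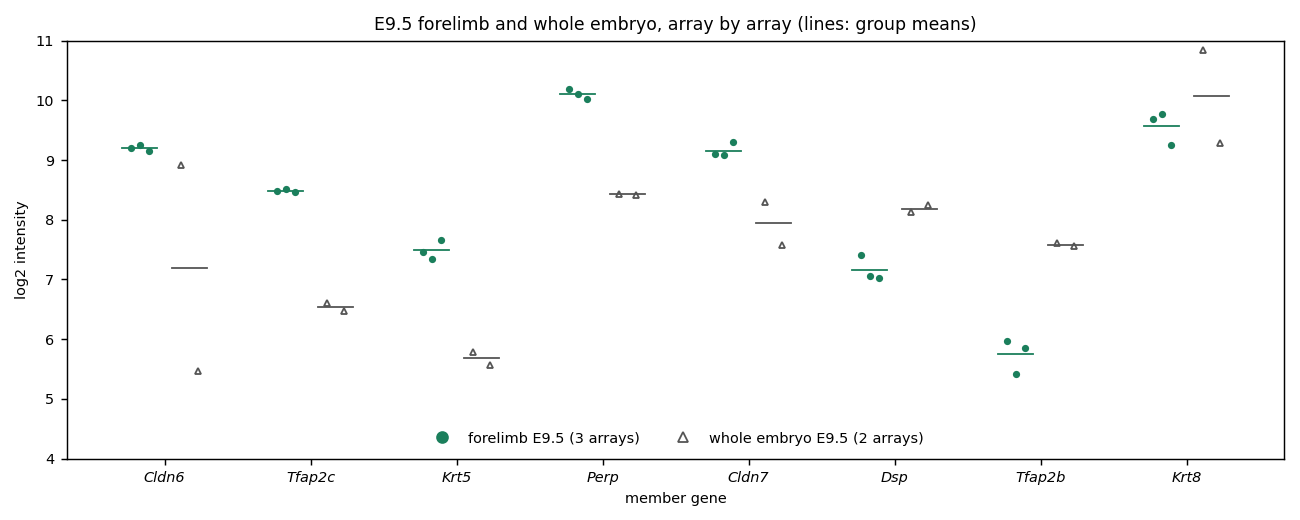
Log2 intensity of the 7 members called at E9.5, and of Krt8, in each forelimb (filled circles, 3 arrays) and whole-embryo (open triangles, 2 arrays) array, with lines for group means. The 2 whole embryos lay apart for Cldn6 (8.92 and 5.47) and Krt8 (10.84 and 9.29), and close together for Tfap2c (6.61 and 6.47).

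Markers of internal epithelia were also compared between E9.5 forelimb and whole embryo, where 2.08% of all genes were higher and 1.61% lower. Of the 10 endoderm, lung and kidney genes measured, 0 were higher and 2 lower, Foxa1 (-4.19) and Foxa2 (-2.33), both factors of endoderm, and the mean of the list was 4.39 to 4.42 over forelimb arrays, against 5.01 to 5.27 over whole embryos (median -0.19). Sox17, a further factor of endoderm and also of endothelium, averaged 6.72 in forelimb and 6.25 in whole embryo and was not called. Of the 4 mesothelium genes 0 were called, and their mean lay the other way, at 5.65 to 6.02 over forelimb arrays, against 5.27 to 5.53 over whole embryos, with Upk3b at 7.52 and 6.32 (adjusted p = 0.0194). Of 11 mesenchyme genes, 8 were higher and 0 lower (median 1.59). Of 18 ridge and limb ectoderm genes, 4 were higher and 0 lower (median 0.59), led by Bhlha9 (2.57) and Fgf8 (1.94). Of the stratification genes 0 of 23 were called, and of the other junction genes 0 of 22. The part of internal epithelia and of mesothelium in the whole-embryo values of the members was not tested.

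From E10.5 on, limb and whole embryo lie on different sets of arrays, so tissue and set cannot be told apart, and the counts describe both together. At E10.5, 12 members were higher and 0 lower in forelimb than in whole embryo (13.9% of all genes called, 1908 higher and 626 lower, median 0.45 for members and 0.03 for all genes), and 10 and 0 in hindlimb (9.77% and 3.41%, median 0.47 for members and 0.04 for all genes). At E11.5, 13 members were higher and 0 lower in forelimb than in whole embryo (11.7% and 3.64% of all genes, median 0.53 for members and 0.09 for all genes), and 10 and 0 in hindlimb (11.8% and 3.95%, median 0.42 for members and 0.07 for all genes). At E12.5, 8 members were higher and 2 lower in forelimb than in whole embryo (8.52% and 5.44% of all genes, median 0.38 for members and -0.05 for all genes), and 7 and 2 in hindlimb (7.11% and 5.43%, median 0.20 for members and -0.05 for all genes). At E13.5, 3 members were higher and 5 lower in forelimb than in whole embryo (5.54% and 8.12% of all genes, median -0.06 for members and -0.06 for all genes), and 3 and 6 in hindlimb (6.10% and 8.35%, median -0.21 for members and -0.08 for all genes). Trp63 was higher in both limbs at all 4 stages, by 1.12 to 1.56, and so was Cldn4, by 1.27 to 2.10. Krt5 was higher at E10.5, by 2.98 for forelimb and 2.73 for hindlimb, and at E11.5, by 2.38 and 1.82, and was not called later (-0.10 and -0.40 at E13.5). At E13.5, Krt8 had a log2 fold change of -3.0 in forelimb and -2.92 in hindlimb, Krt18 of -2.17 and -1.64, Krt19 of -1.81 and -1.99 and Cldn7 of -2.71 and -2.04. Krt15 was lower in hindlimb (-1.72) and not called in forelimb (-0.99) at this stage. Several of the members higher in the later limb had low forelimb levels at E9.5, on the first set. Sfn averaged 7.09 in E10.5 forelimb and 5.75 in E9.5 forelimb, Cldn4 7.93 and 5.81, and Grhl3 6.99 and 5.03, and at E9.5 none of them was called against whole embryo (0.27, -0.53 and -0.09). Tfap2c and Cldn6, also higher in E10.5 forelimb than in whole embryo, went the other way. Tfap2c read 8.46 to 8.51 in E9.5 forelimb and 7.67 to 8.29 in E10.5 forelimb, and Cldn6 9.16 to 9.26 and 8.41 to 8.91. Between E9.5 and E10.5 forelimb, stage and set cannot be told apart. The split changed with the scaling. After quantile normalization it was 10 higher and 4 lower in E11.5 forelimb (1217 and 1095 of the 18194 genes). In E13.5 forelimb it was 5 and 5 (1239 and 1312 genes). Hindlimb had 10 and 2 at both E10.5 (1084 and 919 genes) and E11.5 (1250 and 1120 genes). With arrays centred on their median, E11.5 forelimb had 12 higher and 2 lower (1562 and 876 genes). The split of all genes thus changed with the scaling as well.

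In whole embryo, 7 members were higher at E13.5 than at E9.5 and 0 lower, where 11.3% of all genes were higher and 2.42% lower (median 0.09 for members and -0.00 for all genes). All 7 were genes that also rose in the limbs. Krt5 read 10.27 and 10.29 at E13.5, against 5.79 and 5.57 at E9.5. Krt15 read 10.73 and 10.51, against 6.46 and 5.91, and Krt14 7.87 and 7.85, against 4.44 and 4.05. The arrays of the 2 stages were far apart in these keratins. The log2 fold changes were 4.60 ± 0.18 for Krt5 (adjusted p = 2.63e-24), 4.43 ± 0.26 for Krt15 (adjusted p = 1.52e-18) and 3.61 ± 0.19 for Krt14 (adjusted p = 2.46e-20). Col17a1 (2.23), Perp (2.13), Pkp1 (1.61) and Dsc3 (1.26) made up the rest. Krt8 (-0.96), Krt18 (-0.69), Krt19 (0.14), Cldn6 (-0.06), Cldn7 (0.07) and Tfap2c (-0.40), which fell in the limbs, were not called in whole embryo over this longer span, and the difference from the limbs was not tested. The 2 E9.5 whole embryos lay apart in Krt8 (10.84 and 9.29), Krt18 (10.67 and 9.12), Krt19 (8.46 and 7.02) and Cldn6 (8.92 and 5.47). Krt5 averaged 5.68, 5.63, 7.15, 9.04 and 10.28 from E9.5 to E13.5 (n = 2 each), so that most of its course lay after E10.5. The count changed without whole embryo E9.5 replicate 2, which left 1 array in that group. It was 0 when these 2 groups were fitted alone, with adjusted p of 0.00119 to 0.00661 for Krt5, Krt14, Krt15, Pkp1 and Col17a1. After quantile normalization 7 members were higher and 2 lower, where 1672 of the 18194 genes were higher and 1139 lower. After centring on the median it was 6 and 2 members, and 1422 and 1067 genes.

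**Figure D5:**
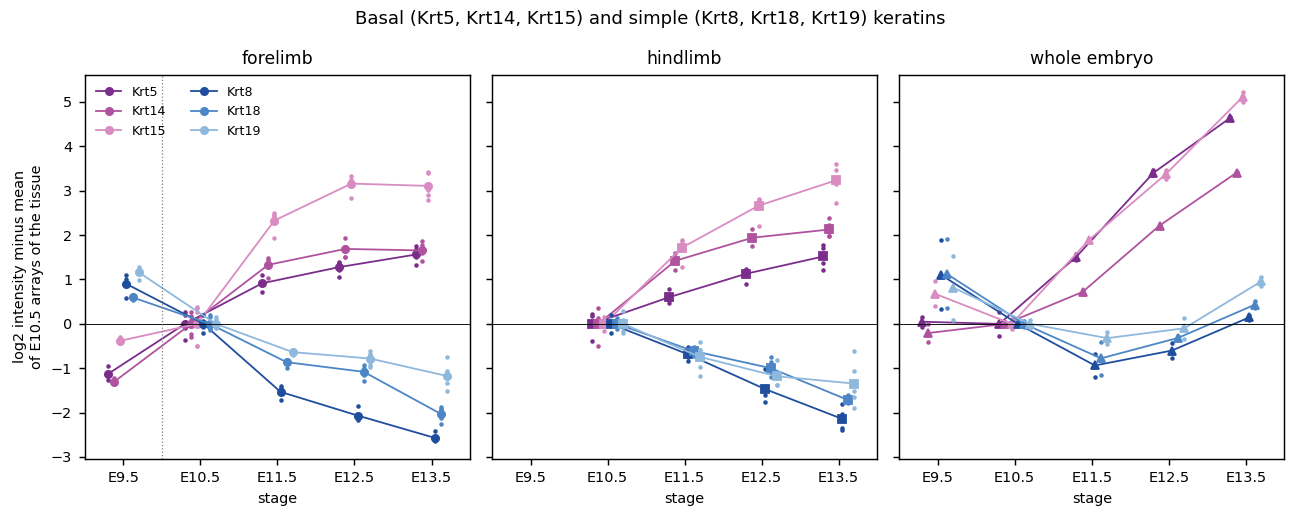
Log2 intensity of the basal keratins Krt5, Krt14 and Krt15 and the simple keratins Krt8, Krt18 and Krt19 as the difference from the mean of E10.5 arrays of the same tissue, in forelimb, hindlimb and whole embryo, with large symbols for group means and dots for arrays. At E13.5 the basal keratins lay above 0 and the simple keratins below 0 in both limbs (Krt15 at 3.11 and Krt8 at -2.57 in forelimb), and a dotted line in the forelimb panel separates the E9.5 arrays, which belong to the other set.

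The table of RefSeq promoters held 24 promoters of 20 of the 38 members. The grainyhead site AACCGGTT, searched on both strands, was in 0 of the 24, and in 0.146% of all 32851 promoters of this length. The AP-2 site GCCNNNGGC, searched on both strands, was in 5 of the 24 (20.8%), against 16.6% of all promoters. The 5 belonged to Dsp, Grhl1, Krt18, Spint1 and Spint2. Of these, Dsp and Krt18 changed in opposite directions in the limbs. A match is only a run of letters in this window, and no binding was measured.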

How the data were processed

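Total RNA of each sample was hybridised to 1 array. The authors background-corrected, normalized and summarized 45101 probe sets with RMA, in a version not given in the sources used here, and deposited linear intensities, of which log2 was taken. The planned design had taken them for log2 gene values. Of the probe sets, 34958 with exactly 1 gene symbol were used, 932 with several symbols and 9211 without an entry were not, and log2 values were averaged per gene (18194 genes). The genome build of the files is not given in the sources used here.

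One limma model (limma 3.58.1, R 4.3.3) held all 14 groups, by title (37 residual degrees of freedom). Calls needed a 2-fold change and a Benjamini-Hochberg adjusted p under 0.001 over all genes, as in the study's methods. The number of arrays limits the precision, and replicates of 1 litter measure only the spread between litter mates. Arrays give no depth and no zero. Probe sets with the suffix x can detect related transcripts, as among keratins (Krt8, Krt14). The members and the gene lists were chosen with earlier results of these data known. Per-array values are given for up to 6 members of largest rise and 6 of largest fall called in both limbs, for members called between the limbs, and for up to 4 called at E9.5. Per-array values of other members were added after they were seen. Replicate numbers of forelimb and hindlimb were checked over 18 pairs (correlation of deviations -0.11 to 0.35, 9 over 0.1) and taken not to pair the samples. Alternatives were another normalization or scaling, the brightest probe set, a filter on dim genes, another threshold or moderation, a fit of the compared groups alone, a replicate block, and each array left out. The fit was tested on simulated data.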

Additional observations from a re-analysis of the deposited data

Results flagged for a closer look

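The 13 members chosen by the rule for per-array values, without Cdh1, were searched in 8 limb groups of 4 or 5 arrays. In these 104 groups an array far from the rest of its group was sought, and 5 stood out, where chance alone gives about 1 in 20. Of these, 3 were in Krt15, each the lowest of its group. They were forelimb E11.5 replicate 1 at 8.46 (nearest 8.95), hindlimb E11.5 replicate 4 at 6.95 (nearest 7.40) and hindlimb E12.5 replicate 1 at 7.86 (nearest 8.41). The Krt15 arrays of the 2 limbs did not overlap with these arrays included. The other 2 were in Krt8, each the highest of its group, forelimb E12.5 replicate 1 at 6.81 (nearest 6.59) and forelimb E13.5 replicate 2 at 6.26 (nearest 6.08). In Tfap2b the change over the stages differed between forelimb and hindlimb by -1.06 on the log2 scale.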

How the results depend on the processing

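For the 13 members chosen by the rule for per-array values, no called change reversed direction under any alternative run. Their calls of forelimb and hindlimb over E10.5 to E13.5 were all kept. Direction was not followed for uncalled changes, for single stage steps or for limb against whole embryo from E10.5 on. Fitted alone, the E9.5 forelimb and whole-embryo groups gave 0 called members, and whole embryo at E13.5 over E9.5 gave 0. Quantile normalization left 0 members in the difference of the limbs' changes, where 50 of all genes were higher and 80 lower. It moved Cldn7 at E9.5 to 0.85 (adjusted p = 0.00136). By the brightest probe set, 1 member, Krt14, was called in forelimb over hindlimb at E10.5. At an adjusted p under 0.05 with no fold limit, forelimb over hindlimb gave 6, 5, 6 and 4 members from E10.5 to E13.5 (2551, 795, 1809 and 1176 of the 18194 genes). The steps gave 22, 9 and 21 in forelimb (21.6%, 10.3% and 49.0% of all genes) and 23, 12 and 18 in hindlimb (29.5%, 16.7% and 37.9%), and E13.5 over E10.5 gave 32 in hindlimb (56.9%). Against whole embryo, forelimb gave 18 at E9.5 (32.7%) and 25, 26, 25 and 29 from E10.5 on (59.7%, 56.2%, 61.8% and 52.6%), and hindlimb 26, 22, 24 and 28 (53.6%, 57.1%, 54.4% and 54.5%). Whole embryo at E13.5 over E9.5 gave 22 (49.4%), and the difference of the limbs' changes 4 (12.9%). The replicate numbers were taken not to pair the samples, as 5 of 18 pairs correlated best with their own number. With own-number correlations of -0.11 to 0.35, this cannot settle whether limbs of 1 number came from 1 embryo. With the replicate block, forelimb over hindlimb at E11.5 gave 0 members (Krt15 at 1.48, adjusted p = 0.00852) and the difference of changes 0 (Tfap2b at -0.99, adjusted p = 0.00452).

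With each array left out in turn, the count was 5 to 12 for E9.5 forelimb over whole embryo (12 without whole embryo E9.5 replicate 1), 7 to 12 for whole embryo at E13.5 over E9.5 (12 without whole embryo E9.5 replicate 2), 0 to 1 for the difference of changes, and 1 to 2 for forelimb over hindlimb at E11.5 (2 without forelimb E11.5 replicate 1). It was 0 to 1 for hindlimb at E12.5 over E11.5 (1 without hindlimb E12.5 replicate 1) and 2 to 4 for forelimb at E13.5 over E12.5. Dsp at E9.5 ranged from -1.15 to -0.96 and Cldn6 from 0.29 to 3.74. Scaling moved the median of all genes to -0.12 (quantile normalization) and -0.29 (centring) for whole embryo at E13.5 over E9.5, from 0.00, and at E9.5 quantile normalization gave 217 genes higher and 369 lower, against 378 and 293. The causes were not tested.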
